A study of Drosophila melanogaster with 2 samples.

Results

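The genes of ecdysone synthesis, uptake and clearance comprised 10 members, chosen by name: 7 that build the hormone (nvd, spok, sro, phm, dib, sad and shd), 1 importer (Oatp74D), 1 efflux transporter (E23) and 1 clearance enzyme (Cyp18a1). They are 10 of the 13968 protein-coding genes that the annotation places on the chromosome arms. It lists phm under the newer symbol phtm, and the older name was matched through the synonyms phm and Cyp306a1. Both libraries were chromatin immunoprecipitations with sequencing from Drosophila melanogaster transgenic for Ets96B-eGFP, an ETS transcription factor with a C-terminal green fluorescent protein tag, pulled down with an antibody to GFP. They were biological replicates 2 and 3 of 1 group, made from whole prepupae of both sexes at 24 h. The labels used here do not say which promoter drives the tagged gene, another label field names the antibody by Ets96B itself, and the control's reads were not analysed here. With whole animals, a peak cannot be assigned to the prothoracic gland or to any other tissue.

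Insects take up sterols from food and turn them into ecdysone in the prothoracic gland, through a chain of enzymes known as the Halloween group. Peripheral tissues convert ecdysone to its active form with the enzyme encoded by shd. Cells import the hormone through Oatp74D, the ecdysone importer, and inactivate it through Cyp18a1, while E23 is an ABC transporter induced by ecdysone that dampens the response. Pulses of the hormone time the larval molts, pupariation and the prepupal to pupal transition.

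The authors deposited 4 peak lists: 1 for each replicate, 1 from both pooled, and 1 of reproducible peaks. The signal value is the authors' own score of a peak, and its rank was read only within its list. In the reproducible list it ran from 148 to 5811 with a median of 293, and these peaks held the highest ranks of the pooled list too. Read depth is unknown from these lists. Each gene was given a window from 5 kb before its start to 5 kb after its end, and a peak counted when its summit lay there.

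Of the 10 genes, 7 had at least 1 reproducible summit in the window, against 53.1% of all protein-coding genes. These were sro, phm, sad, shd, Oatp74D, E23 and Cyp18a1. The remaining 3, dib, nvd and spok, had none in any of the 4 lists. In all there were 24 distinct reproducible summits, since the adjoining genes phm and Cyp18a1 share 1. Within 500 bp of a start site there was a reproducible summit at 4 of the 10 genes (phm, shd, Oatp74D and E23), against 20.5% of all genes. Between the gene's own ends there was one at 2 of 10 (Oatp74D and E23), against 15.2%. The pooled list added no gene, with 7 of 10 against 69.6%. When each summit was given only to the gene with the nearest start site, 4 genes and 12 summits were left. The share of all genes by that rule was not counted.

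A longer window holds more summits by its length, and the windows ran from 11.2 kb for sro to 86.8 kb for nvd. Among the 5 genes with windows under 15 kb, 4 had a reproducible summit (sro, phm, sad and Cyp18a1), against 48.0% of genes with such windows. The window of shd, at 17.7 kb, falls in the class from 15 to 25 kb, where 64.2% of genes had one. Of the 4 genes with windows over 25 kb, E23 and Oatp74D had 7 each and nvd and spok had none, against 74.8% of genes in that class with at least 1. A count of 7 or more was reached by 1.74% of all genes and by 15.8% of those with windows over 25 kb.

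**Figure D1:**
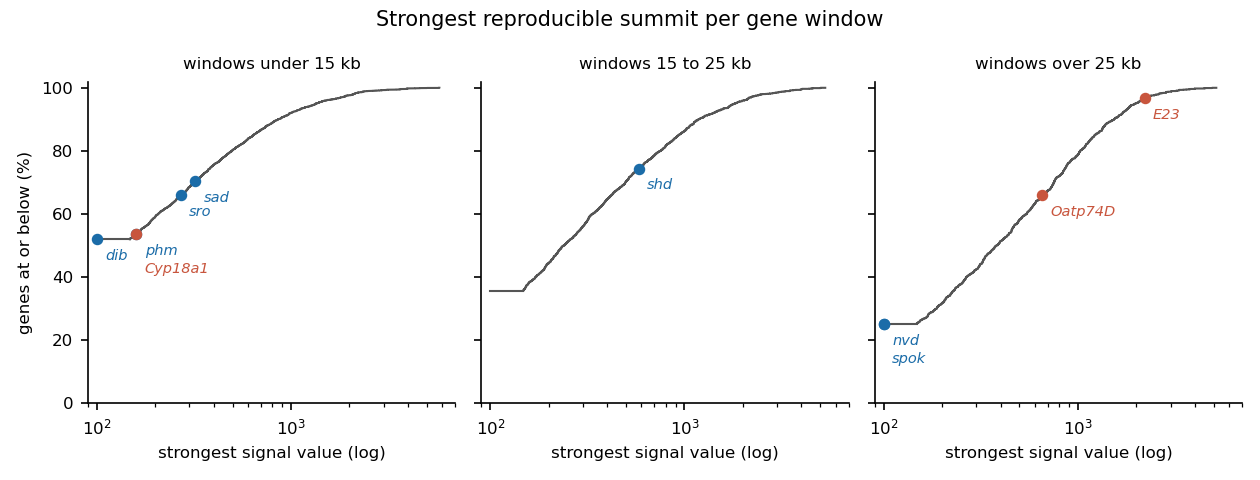
Strongest reproducible summit in each gene's window, as the cumulative share of genes (y axis, %) at or below a signal value (x axis, log scale), in 3 classes of window length. Points mark the 10 genes (blue, synthesis; red, transport and clearance), those with no summit being set at the left edge, and E23 lies above 96.7% of genes with windows over 25 kb.

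E23 carried the strongest peak of the group. Its gene (FBgn0020445) runs on the minus strand of 2L from 3334875 to 3354829, and the dm6 peak covered 3354834 to 3355348 with its summit at 3355078, 249 bp upstream of the only annotated start site. The signal value was 2205 in the reproducible list, 929.9 in replicate 2 and 1287 in replicate 3. Its rank was 99 in the reproducible list, 69 in replicate 2 and 142 in replicate 3, so it stood near the top of every list. A summit at least as strong lay in the windows of 2.01% of all genes and of 3.29% of genes with windows over 25 kb. The sequence 100 bp either side of this summit is shown because it is the strongest site of the 10 genes. Here and in the later stretches the plus strand is printed, and capitals mark any of 5 words: the ETS word (CNGGAAN with A or C at the first N and A or G at the last), GATA with A or T before it and A or G after it, TAATTA, the nuclear receptor word AGGTCA, and GAGAG, each on either strand.
E23 start site, chr2L:3354978-3355178: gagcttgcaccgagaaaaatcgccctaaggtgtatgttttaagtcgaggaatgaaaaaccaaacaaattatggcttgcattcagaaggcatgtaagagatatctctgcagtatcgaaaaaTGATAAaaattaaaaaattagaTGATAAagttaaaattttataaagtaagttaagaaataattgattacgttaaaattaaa
It held GATA words centred 23 and 45 bp from the summit, and no ETS word.

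The other 6 reproducible summits of E23 formed a series across its upstream region and its second intron. The next in strength, at 3348288, had a signal value of 1146 and lay 6541 bp inside the gene, with rank 551 in the reproducible list, 532 in replicate 2 and 556 in replicate 3. Another, at 3356438, lay 1609 bp upstream of E23 with a signal value of 968 and ranks 1265 and 605 in replicates 2 and 3. That one was nearer to the start site of CG8838, at 1208 bp. Within the gene, summits of 606, 428, 343 and 278 signal lay 8512, 15799, 3007 and 2804 bp from the start site. All 5 internal summits fell in intron 2 of 8, which is 14039 bp long in each of the 3 annotated transcripts. The weakest pair stood under 300 bp apart. Replicate 3 had a summit within 100 bp of each, while replicate 2 had one for the summit of 278 signal and none for that of 343. Beyond these, the pooled list held 5 weaker summits that were not in the reproducible list, the strongest with a signal value of 114. Each of them had a summit of at least 1 replicate within 100 bp. Past the window the next reproducible summit was 16.8 kb from the gene, near GramD1B.

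**Figure D2:**
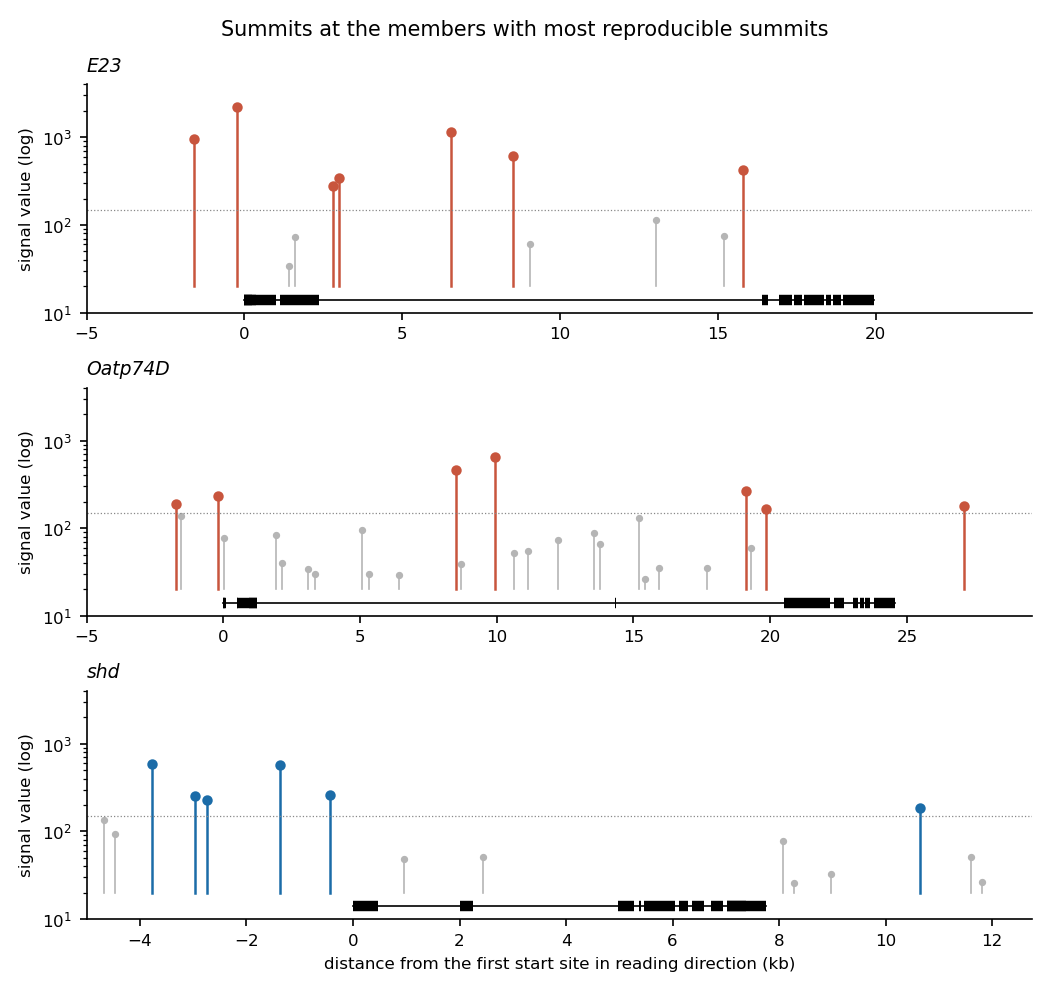
Signal value (y axis, log scale) of every pooled summit against distance from the first start site in the direction of reading (x axis, kb), for E23, Oatp74D and shd. Coloured stems are reproducible summits, and grey stems are pooled summits that are not in the reproducible list. Black boxes are exons and the dotted line is the lowest reproducible signal value, 148. The 6 coloured stems of shd all lie outside its exons and introns.

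Oatp74D (FBgn0036732, plus strand of 3L, 17487118 to 17511693), the importer, also had 7 reproducible summits, at lower signal. Its strongest had a signal value of 651 at 17497053 and ranked 1487 in the reproducible list, 1679 in replicate 2 and 1373 in replicate 3. The second, at 17495615, had a signal value of 463 and ranks 2349 and 2471 in the replicates. Both lay in a 13.1 kb intron, the second intron in 3 of the 4 transcripts and the first in the other, 9935 and 8497 bp from the first start site. The small gene edin, with a role in the immune response, is nested in that intron, and its start site was the nearest to both, at 2173 and 735 bp. In the next intron, of 6.15 kb, were summits of 266 and 167 signal at 17506215 and 17506981. The start-site summit of Oatp74D lay 178 bp upstream, at 17486940, with a signal value of 233 and ranks 5113 in the reproducible list, 4447 in replicate 2 and 6047 in replicate 3. The last 2 summits were nearest to neighbours: 190.2 signal in an intron of CG6333, and 178 signal between CG7564 and U4-U6-60K, 98 and 288 bp upstream of their start sites.

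Both intronic stretches are shown because they hold ETS words, the binding word of the immunoprecipitated factor's family, CCGGAAG in the first and CCGGAAA in the second, each read on the minus strand.
Oatp74D intron, strongest, chr3L:17496953-17497153: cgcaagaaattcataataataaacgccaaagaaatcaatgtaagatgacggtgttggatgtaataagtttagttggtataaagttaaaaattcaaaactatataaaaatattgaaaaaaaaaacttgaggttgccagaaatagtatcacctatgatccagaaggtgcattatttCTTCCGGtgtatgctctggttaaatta
Oatp74D intron, second, chr3L:17495515-17495715: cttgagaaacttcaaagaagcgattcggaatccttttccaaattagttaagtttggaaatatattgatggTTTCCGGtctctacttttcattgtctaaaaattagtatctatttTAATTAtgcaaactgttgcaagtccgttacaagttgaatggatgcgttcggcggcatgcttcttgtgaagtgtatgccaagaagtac
The ETS word was centred 77 bp from the summit in the stronger peak and 27 bp from it in the second. The second peak also held TAATTA, 17 bp from its summit. The pooled list held a further 20 summits of the Oatp74D window that were not in the reproducible list. The strongest, of 138 signal, lay in an intron of CG6333. Most of the others lay in introns of Oatp74D, at signal values up to 129.

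Cyp18a1 (FBgn0010383, minus strand of X, 18688538 to 18693042) encodes a P450 that inactivates the hormone, and it stands beside phm (FBgn0004959, plus strand, 18685766 to 18688433), a P450 of the late synthesis steps. The genes are convergent and adjoin at their ends. The only reproducible summit of either window was at 18685436, 330 bp upstream of the phm start site. At a signal value of 159.9 it was close to the lower edge of the list, with rank 7446. Replicate 3 had it at rank 7312 and replicate 2 at rank 9250, so in replicate 2 it was weaker than a list of the size of the reproducible one would keep. From the Cyp18a1 start sites it was 7308 bp or more away, and Cyp18a1 thus had no reproducible summit of its own start region. Weaker peaks did occur there. A pooled summit of 48.9 signal lay 310 bp upstream of Cyp18a1 (rank 26650 in replicate 2 and 22388 in replicate 3), and one of 86.0 signal lay 3531 bp upstream (18613 and 11065). Neither passed into the reproducible list. For phm, a pooled summit of 43.9 signal lay 123 bp upstream. The next reproducible summit beyond the phm window was 38.6 kb away, near Rip11.
phm start site, chrX:18685336-18685536: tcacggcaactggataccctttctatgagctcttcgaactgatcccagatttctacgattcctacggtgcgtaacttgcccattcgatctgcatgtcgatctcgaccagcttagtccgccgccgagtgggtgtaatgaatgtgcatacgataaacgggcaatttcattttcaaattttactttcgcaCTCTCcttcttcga
This stretch is shown as the only reproducible site in either window; the bases within 50 bp of its summit are 51.5% G+C, against a median of 27.7% for the 24 summits, and its only marked word, GAGAG, was 89 bp from the summit.

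Among the synthesis genes shd (FBgn0003388, plus strand of 3L, 14614458 to 14622205) had the most summits. Its window of 17.7 kb was the longest of these genes after those of nvd and spok. There were 6 reproducible summits in the shd window, and 5 of them lay upstream with shd as the nearest start site. The share of all genes with as many was not counted. The strongest, at 14610691, had a signal value of 581 and lay 3767 bp upstream, with ranks 1740 in the reproducible list, 1356 in replicate 2 and 2132 in replicate 3. A second of nearly the same strength, 579, lay 1361 bp upstream at 14613097, with ranks 1214 and 2245. Between them were summits of 253 and 227 signal at 2965 and 2749 bp upstream. Replicate 3 had no summit within 100 bp of the former. The start-site summit, 436 bp upstream at 14614022, had a signal value of 259 and ranks 3357 and 5348. In replicate 2 the summit nearest to it was 95 bp away, over 500 bp from the start site. The sixth summit, 187 signal, lay beyond the gene in the first intron of CG9628. No reproducible summit lay between the ends of shd, where the pooled list had summits of 51.2 and 48.6 signal.
shd upstream, strongest, chr3L:14610591-14610791: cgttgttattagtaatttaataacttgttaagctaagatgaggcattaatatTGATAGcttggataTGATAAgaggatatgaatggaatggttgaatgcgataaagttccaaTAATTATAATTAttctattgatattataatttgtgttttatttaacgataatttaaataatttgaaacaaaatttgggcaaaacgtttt
shd upstream, second, chr3L:14612997-14613197: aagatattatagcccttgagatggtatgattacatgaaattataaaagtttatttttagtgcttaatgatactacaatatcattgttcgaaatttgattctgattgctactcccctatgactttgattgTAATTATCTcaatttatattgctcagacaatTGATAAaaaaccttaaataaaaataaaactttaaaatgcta
The stretches are shown together because they were alike in signal. Within 50 bp of its summit the first held 2 GATA words and the second 1, with a further one at 63 bp, and both held TAATTA. In the first, a pair of TAATTA words stood end to end, 15 and 21 bp from the summit. In the second, TAATTA and a GATA word overlapped by 3 bases, 32 and 35 bp from it. Neither held an ETS word.

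The summits counted for sad and sro were nearest to start sites of other genes. The window of sad (FBgn0003312, 3R, 11877235 to 11879754), a P450 of the last step to ecdysone, held a summit of 321 signal at 11882643. It ranked 3632 in the reproducible list, 4024 in replicate 2 and 3452 in replicate 3, and lay 109 bp upstream of CG6962, which is transcribed towards sad, and 147 bp upstream of CG31368 on the other strand. The other, 183 signal at 11872867, was 4368 bp upstream of sad and 3407 bp from CG6959, with rank 11299 in replicate 2 and 5845 in replicate 3. In the pooled list 2 weak summits, of 41.0 and 27.5 signal, had sad as the nearest start site. The window of sro (FBgn0262112, 3R, 29794597 to 29795805), a short-chain dehydrogenase, held 1 summit in each of the 4 lists, within 26 bp of each other. The reproducible one, at 29799590 with a signal value of 271, lay 68 bp upstream of Drice, an effector caspase gene, 236 bp upstream of Rnb on the other strand, and 4993 bp from the sro start site. It ranked 3780 in replicate 2 and 5270 in replicate 3. The stretches around the sad summit of 321 signal and the sro summit are shown because both lie at start sites of neighbours.
sad window, between CG6962 and CG31368, chr3R:11882543-11882743: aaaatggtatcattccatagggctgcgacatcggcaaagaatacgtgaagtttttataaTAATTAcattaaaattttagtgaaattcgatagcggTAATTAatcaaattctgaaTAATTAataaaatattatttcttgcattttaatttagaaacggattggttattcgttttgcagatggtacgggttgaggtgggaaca
sro window, between Rnb and Drice, chr3R:29799490-29799657: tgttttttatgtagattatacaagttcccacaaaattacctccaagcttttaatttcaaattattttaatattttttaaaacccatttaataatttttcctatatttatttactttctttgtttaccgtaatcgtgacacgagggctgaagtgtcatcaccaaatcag
The sad stretch held 3 TAATTA words within 38 bp of the summit, and the sro stretch, cut where the Drice transcript begins, held none of the words.

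The window of dib (FBgn0000449, 3L, 4062292 to 4064551), the P450 between phm and sad in the pathway, had no summit in any list. Of genes with windows under 15 kb, 64.7% had a pooled summit. The window's end decided this count, since a strong summit lay just outside it. At 4070577, 6026 bp past the end of dib, was a peak of 1869.7 signal, nearest to the start site of CG32259, with rank 176 in the reproducible list, 252 in replicate 2 and 120 in replicate 3. With 10 kb either side dib was counted too, which gave 8 of 10 genes and 30 summits. The share of all genes with a summit in windows that wide was not counted.

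**Figure D3:**
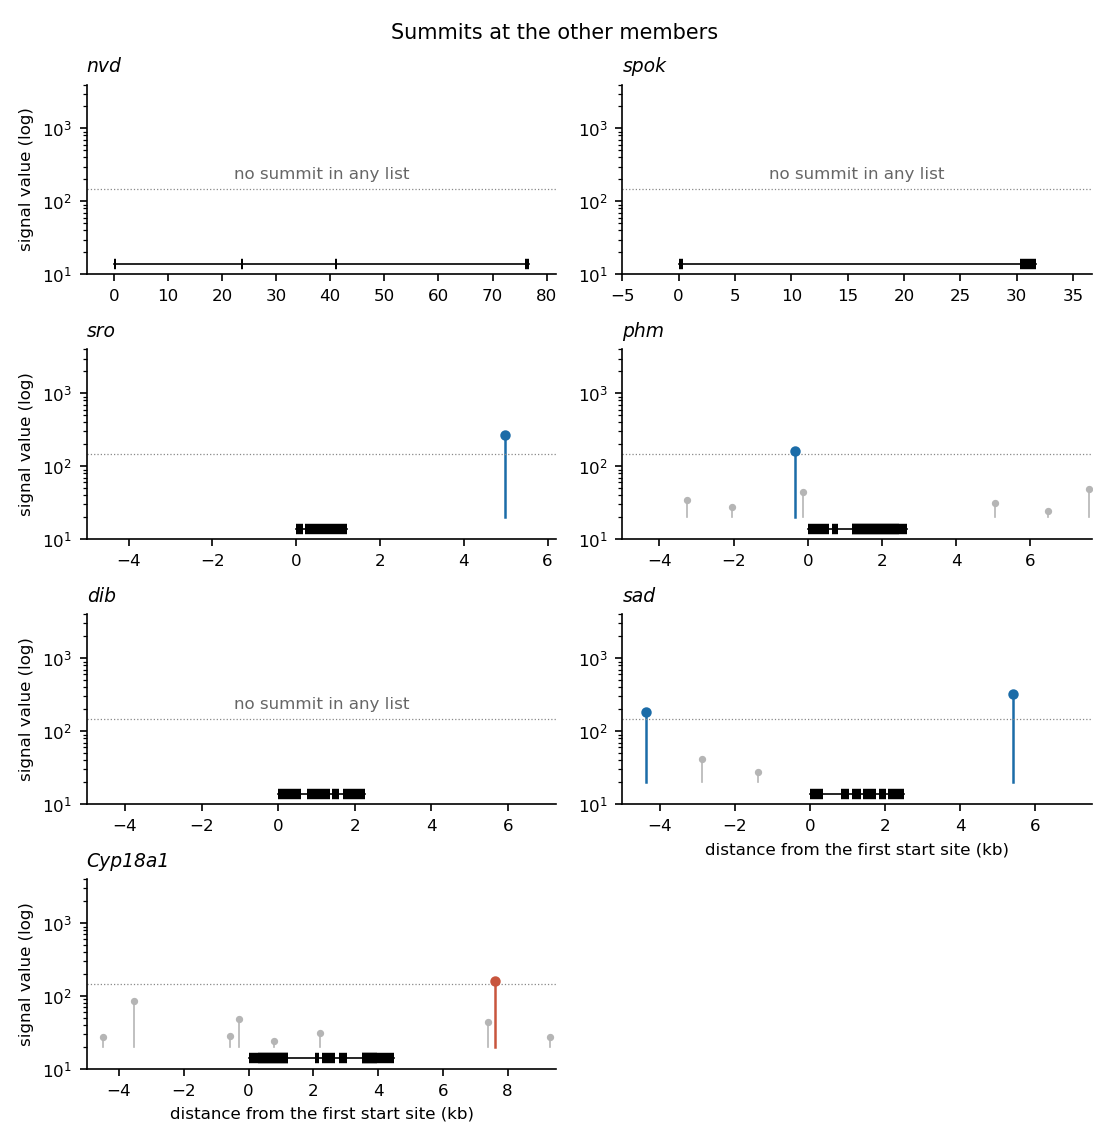
Signal value (y axis, log scale) of every pooled summit against distance from the first start site in the direction of reading (x axis, kb) for the other 7 genes. Coloured stems are reproducible summits, and grey stems are pooled summits that are not in the reproducible list. The dotted line is 148, the lowest reproducible signal value. No stem is drawn for nvd, spok and dib, and phm and Cyp18a1 show the same coloured summit.

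The absence at nvd and spok went with a near absence of peaks around them. nvd (FBgn0287185, 3L, 24324866 to 24401655), a Rieske-type oxygenase that acts on cholesterol, and spok (FBgn0086917, 3R, 3322810 to 3354486), a P450 of the steps called the black box, lie towards the centromeres of chromosome 3. The nearest reproducible summit was 1415 kb from nvd and 859.8 kb from spok. Within 500 kb either side the pooled list held 4 summits around nvd and 1 around spok, against 205 to 333 around the other 8 genes. Protein-coding genes with a start site there numbered 6 and 7, against 88 to 148. The genome copy used marks 41.5% of the bases of the nvd window and 50.3% of the spok window as repeats, with a median of 12.2% over all gene windows. Of genes with at least the repeat share of nvd, 15.5% had a reproducible summit. The part of repeats and of read mapping in these counts was not tested.

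Synthesis genes were set against transport and clearance genes as the roles divide them. Of 7 synthesis genes 4 had a reproducible summit, and of the 3 others all 3 did, against 53.1% of all protein-coding genes. The shared phm summit is included in each count. It was the only one for Cyp18a1 and lay 7308 bp from the nearer of that gene's start sites. The synthesis windows held 10 summits with a median signal value of 256 (159.9 to 581), none of them between the ends of a synthesis gene. The transport and clearance windows held 15 with a median of 343 (159.9 to 2205), and 9 of these were inside Oatp74D or E23. Each side had 6 summits with the gene's own start site as the nearest, and each had 2 genes with a summit within 500 bp of a start site. Per length, synthesis windows carried 51.3 summits per Mb (95% Poisson interval 24.6 to 94.4) and the others 189.8 (106 to 313), beside 59.9 over the chromosome arms. The arms include stretches far from any gene, while each window holds one. A density over all gene windows was not counted, so the value of the arms is no like-for-like reference. The intervals cover counting error only. Without nvd and spok the synthesis value was 151 (72.2 to 277), which overlapped that of the transport and clearance windows. With 7 and 3 genes, and with shd alone giving 6 of the 10 synthesis summits, the roles were not tested against each other.

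Replicate agreement at these genes was close to that of the lists as a whole. Of the 64 replicate 2 peaks with summits in the windows, 51 overlapped a replicate 3 peak by at least 1 bp (79.7%, exact 95% interval 67.8 to 88.7), against 77.1% of the whole list. In the other direction it was 50 of 67 (74.6%, 62.5 to 84.5) against 75.4%. Among the 24 reproducible summits, 23 had a replicate 2 summit within 100 bp, 23 a replicate 3 summit, and 22 both. In those 22 the replicate summits stood a median of 23 bp apart, and the larger rank exceeded the smaller by a median factor of 1.33 and at most 2.09. Over all reproducible summits with both, these medians were 23 bp and 1.31. Across 21 pairs that overlapped 1 to 1 the signal values had a Spearman rho of 0.93, a description of peaks that share libraries and a control.

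**Figure D4:**
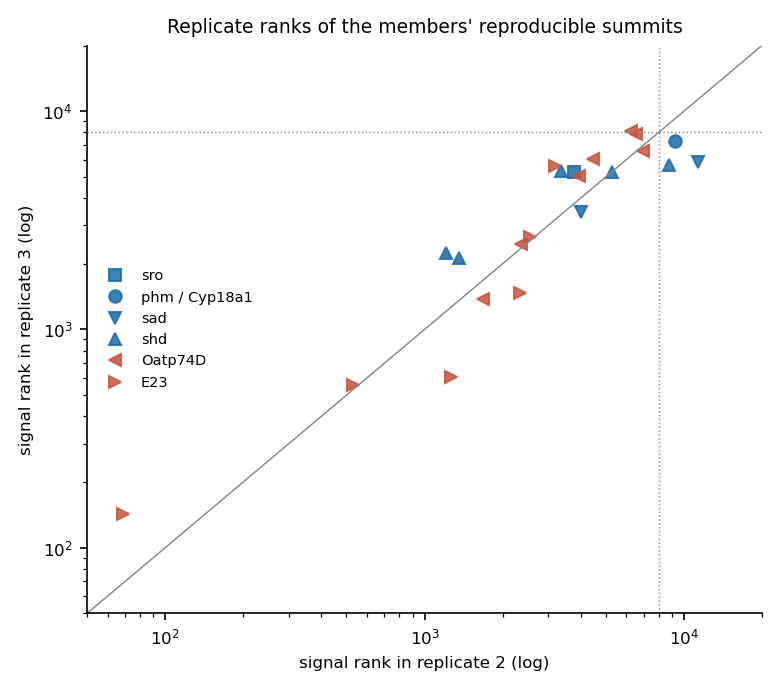
Signal rank in replicate 3 (y axis, log scale) against replicate 2 (x axis, log scale) for the 22 reproducible summits found within 100 bp in both; the grey diagonal marks equal ranks and the dotted lines the size of the reproducible list. The start-site summit of E23 is at the lower left. The summit shared by phm and Cyp18a1 lies right of the vertical dotted line, as do the sad summit at 11872867 and the shd summit at 14625097.

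By position, 7 of the 24 summits were promoter summits, within 500 bp of any protein-coding start site (29.2%, against 30.6% of all reproducible summits), 11 were intronic (45.8% against 44.4%) and 6 intergenic (25% against 21.0%). Of the 7 promoter summits, 4 belonged to the genes themselves and 3 lay between divergent neighbours, within 500 bp of a start site of each: Drice and Rnb, CG6962 and CG31368, and CG7564 and U4-U6-60K. Within 50 bp of the summit the ETS word occurred at 1 of 24 (4.17%, 0.105 to 21.1), the Oatp74D intron, against 2.45% of all reproducible summits. Within 100 bp it occurred at 3 of 24 (12.5%, 2.66 to 32.4), against 5.64% of all. The 3 are both printed Oatp74D stretches and the E23 intron summit at 3351822, where CAGGAAG was centred 64 bp away. GATA words occurred at 9 of 24 (37.5%, 18.8 to 59.4) against 22.9%, and TAATTA at 5 of 24 (20.8%, 7.13 to 42.2) against 11.0%. GAGAG stood at 4 of 24 against 10.2%. The count was 0 of 24 for AGGTCA, against 1.85% of all reproducible summits. It was also 0 for the AP-1 word TGACTCA, against 0.811%, and for the ETS word read backwards, against 1.83%. A count of 0 of 24 allows a share of up to 14.2%, the upper end of the exact interval. Every interval that is given includes the value of the whole list.

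Other genes of the pathway were counted by the same rules. Of 18 further genes of steroid synthesis and prothoracic gland control, 10 had a reproducible summit in the window (55.6%, against 53.1% of all genes) and 2 within 500 bp of a start site (11.1%, against 20.5%). With windows under 15 kb it was 6 of 12 (50%, against 48.0%). Those at a start site were Smox, the activin signal transducer, with a signal value of 208, and vvl, a POU factor needed for Halloween gene expression, with 160.0. Of 9 export, clearance and organic anion transporter genes, 4 had one in the window (44.4%), 2 of the 6 with windows under 15 kb among them (33.3%), and 2 had one at a start site (22.2%): Oatp30B with a signal value of 1161 (rank 541), and Atet, an ABC transporter of ecdysone release, with 409.9. Of 80 other P450 genes, 22 had one in the window (27.5%) and 7 at a start site (8.75%). In this list 76 genes had windows under 15 kb, and 21 of these had a summit (27.6%), beside 48.0% of all genes with such windows. P450 genes often lie side by side, so neighbours share summits and are not independent. The strongest at their start sites were Cyp6u1 (1015), Cyp6a16 (471), Cyp6v1 (389), Cyp6a2 (309) and Cyp4d20 (291). The members that are P450s (spok, phm, dib, sad, shd and Cyp18a1) had a summit in the window in 4 of 6 cases. This stands beside 53.1% of all protein-coding genes, and the windows of spok and shd are longer than 15 kb. Among the 4, phm and Cyp18a1 shared their summit, and both sad summits were nearest to start sites of other genes.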

How the data were processed

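Files deposited with the samples say how the authors derived the peak lists on dm6: replicate lists came from 1 replicate's aligned reads with a shared control, the pooled list from both with that control, and the reproducible list from those 3 by an irreproducible discovery rate cutoff. The sources used here name no aligner, peak caller or threshold value. The signal value was used as the authors deposited it. The deposited −log10 q-value was 4.42 for every reproducible peak and ordered none. The summit is the peak start plus the deposited offset, printed 1-based. Genes came from Ensembl release 115 and sequence from the RefSeq copy of the assembly. A summit was assigned to every gene whose window held it. Replicate lists were cut to the size of the reproducible list where 1 replicate stood in for both. Intervals are exact Clopper-Pearson or Poisson intervals at 95%. No test was run over the members, because they and the lists were chosen with earlier results of these data known. All 10 members were named. From each further list at most 5 genes were, those with the strongest reproducible summit within 500 bp of a start site. Windows of 2 kb and 10 kb and other alternatives are in the closing section. The symbol EO was resolved to Eo by synonym. Peak assignment was tested on planted summits. Python 3.11.15, numpy 2.4.6 and scipy 1.17.1 were used.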

Additional observations from a re-analysis of the deposited data

How the results depend on the processing

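No paired analysis was possible because both samples belong to 1 group. The count of 7 genes with a reproducible summit was 2 with the gene alone, 4 with 2 kb either side, 4 with the strongest 4007 peaks and 4 with each summit given to its nearest start site. For synthesis genes the main count of 4 became 0, 2, 2 and 2 under the same settings in that order, while the transport and clearance count was 2 in each. The 24 summits became 9 with the gene alone, 11 with the strongest 4007 peaks, 12 by nearest start site and 69 with all pooled peaks. With 10 kb either side the counts were 8 genes, 5 of them synthesis genes, and 30 summits. The share over all genes was 15.2% with the gene alone. It was not counted for 2 kb, 10 kb, the strongest 4007 peaks, the nearest start site or 200 bp. Genes with a start-site summit numbered 1 with 200 bp in place of 500. On 1 replicate alone the counts ran from 5 to 7 genes, 3 to 4 synthesis genes, 2 to 3 transport and clearance genes, 23 to 24 summits and 2 to 4 start sites. Except for the count of summits, the lower value was that without replicate 3: in replicate 2 the summit shared by phm and Cyp18a1 ranked 9250, past the size of the reproducible list, and the summit near the shd start site stood over 500 bp from it. With summits required within 100 bp, agreement was 60.9% and 58.2%, against 56.8% of the whole list in each direction. By that match rho was 0.90 over 39 pairs. The ETS share of 4.17% was 12.5% with 100 bp either side in place of 50, and ran from 4.17% to 8.70% on 1 replicate. The ranks of the strongest summits moved by less than 1.5 times in each replicate list. The limits are the unknown depth, 2 replicates and 1 group. Leaving out nvd and spok, and merging summits under 300 bp apart (22 sites), were chosen after seeing the data.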
